A study of Mus musculus with 4 samples.

Results

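Solute carriers are membrane proteins that move small molecules across the plasma membrane or into organelles, and their genes carry symbols made of Slc, a family number and a letter. The deposited table listed 164 such symbols. Members were chosen by their measured level: a symbol was kept when any of the 4 libraries reached 1 FPKM, which left 105 (FPKM is the number of sequenced fragments scaled to transcript length and to the mapped fragments of the library). The same minimum left 5885 genes of any kind, of 9997 listed. The choice used the same values that are described below, so the levels are a description, with no test. Just inside the minimum lay Slc10a1, at 1.00 FPKM in its highest library, and Slc41a2, at 1.09 FPKM; just outside lay Slc35f1, at 0.871 FPKM, and Slc16a11, at 0.856 FPKM. The symbol is no guarantee of a transporter: 2 of the 105, Slc9a3r1 and Slc9a3r2, encode scaffold proteins that bind transporters, and they are given apart.

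The RNA came from embryoid bodies, the suspension aggregates of embryonic stem cells, grown from the mouse line ES-E14TG2a. There were 4 libraries, each alone in its group: embryoid bodies labelled control, and embryoid bodies treated with all-trans retinoic acid (ATRA), a vitamin A derivative used to drive neural differentiation, labelled 0, 6 and 10 days. Per the labels, ATRA at 5 µM was added on culture days 4 and 6, the stages follow 4 days of treatment, and after 8 days in suspension the aggregates were plated on poly-ornithine and laminin. The culture day of the control is not stated, so ATRA, culture age and plating cannot be told apart in a comparison with it. All groups derive from this 1 line, and an embryoid body holds many cell types, so fewer cells of a type and less RNA per cell cannot be told apart. No difference has a replicate check.

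Families of solute carriers are defined by sequence and mostly share a substrate class. Amino acid carriers feed protein synthesis and growth signalling, facilitative and sodium-coupled carriers bring in sugars, exchangers of inorganic ions set cell volume and pH, and family 25 links the cytosol with the mitochondrial matrix. In the mouse conceptus, visceral endoderm and placenta take up nutrients from the mother through many of them, and family 39 (zinc uptake) and Slc40a1 (iron export) are known for this role.

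About 24500000, 26400000, 25200000 and 27300000 fragments were estimated for the control, 0-day, 6-day and 10-day libraries. For the median member transcript of 3461 nt, 1 FPKM then rests on 84.8 to 94.5 fragments, which leaves a relative error of 10.3% to 10.9%; at 5 FPKM it is 4.60% to 4.86%. These errors cover counting only. They rest on a rough depth estimate whose range was limited by the values it used, as given with the processing. The table covers chromosomes 1 and 10 to 18, and solute carrier genes elsewhere were not analysed here. The 6 pluripotency markers in the table summed to 2116 FPKM in the control and 149, 249 and 232 FPKM at 0, 6 and 10 days. The 12 endoderm markers summed to 208, 416, 2863 and 4230 FPKM in the same order, the 11 trophoblast markers to 0.448, 0.157, 61.9 and 138 FPKM, and the 8 muscle markers to 50.2, 15.3, 60.6 and 303 FPKM. The 8 neuronal markers summed to 7.89, 9.73, 73.1 and 34.7 FPKM. Single genes weigh heavily in such sums, and not every marker follows its sum. In the endoderm list Sparc alone was at 133, 259, 1862 and 2711 FPKM, while Sox7 was at 5.11, 19.6, 5.48 and 3.04 FPKM. In the muscle list Tnnc1 was at 1.54, 2.05, 45.7 and 217 FPKM, and Myl4 at 35.6, 1.98, 4.12 and 13.3 FPKM. The erythroid list had 2 genes in the table, Hba-x and Hba-a1, both listed at 0 in the control and at 0 days, and their sum was 0.722 FPKM at 6 days and 8.96 FPKM at 10 days. No muscle or pluripotency marker was listed at 0 in any library. Of the trophoblast markers 5 were listed at 0 in the control and 9 at 0 days. The part of these marker shifts in any result below was not tested.

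The members were less abundant than genes at large: the highest library of the median member was at 9.35 FPKM, against 14.8 FPKM over all genes, and 40 members (38.1%, against 23.4% of all genes) stayed under 5 FPKM. In 4 members, Slc25a3, Slc29a1, Slc25a39 and Slc9a3r1, 1 library or more reached 100 FPKM (3.81%, against 10.6%).

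Differences are log2(FPKM + 1) values, on which the change of a low gene looks smaller than it is, and a gene is called higher or lower when it differs by 2-fold or more on that scale. At 0 days, 10 of 105 solute carrier genes (9.52%) were higher than in the control and 10 (9.52%) were lower, against 12.2% higher and 12.8% lower over all genes tested. Between 6 and 0 days 5 were higher (4.76%) and 6 lower (5.71%), against 8.22% and 4.88% of all genes. At 10 days no solute carrier gene was 2-fold higher or lower than at 6 days, against 3.70% and 0.850% of all genes. The largest differences of that step were those of Slc1a6 (0.96), Slc9a3r2 (0.93) and Slc45a3 (0.89), and a pseudocount of 0.5 in place of 1 gave 2 higher genes, Slc1a6 and Slc25a48. At 10 days relative to the control 21 were higher (20.0%) and 11 lower (10.5%), against 19.6% and 17.1% of all genes. Relative to the control at 10 days, the share of higher members lay near that of all genes and the share of lower members below it.

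The balance of these calls depended on how the libraries were scaled. At 0 days relative to the control the median difference of all genes was -0.04 as deposited, 0.07 under median-ratio scaling and 0.14 under upper-quartile scaling. At 10 days relative to the control it was -0.04 as deposited, 0.11 under median-ratio and 0.04 under upper-quartile scaling, and at 10 relative to 6 days it was 0.02, 0.02 and -0.09. The split of higher and lower members at 0 days was 12 and 8 under median-ratio scaling and 13 and 7 under upper-quartile scaling. As deposited, the median member differed by 0.17 from the control at 0 days and by 0.18 at 10 days.

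Over the 4 libraries together, 49 of the 105 members (46.7%) had a span of 2-fold or more, against 51.8% of all genes. The control was the highest library for 12 of them, the 0-day library for 11, the 6-day library for 6 and the 10-day library for 20. As shares of the members these are 11.4%, 10.5%, 5.71% and 19.0%, against 20.4%, 9.28%, 4.21% and 17.9% of all genes. Members highest in the control were thus a smaller share than among all genes, and the shares highest in an ATRA library lay near the background. In 10 members the FPKM was higher at every stage than at the one before and the whole span reached 2-fold: Slc16a9, Slc23a3, Slc2a12, Slc35b2, Slc35e4, Slc35f5, Slc39a5, Slc40a1, Slc45a3 and Slc7a8. In 5 it was lower at every stage: Slc25a35, Slc29a1, Slc29a3, Slc39a10 and Slc39a14. These are 9.52% and 4.76% of the members, against 10.1% and 7.90% of all genes. A step of any size counted here, such as -0.0067 for Slc29a1 between 6 and 0 days.

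**Figure D1:**
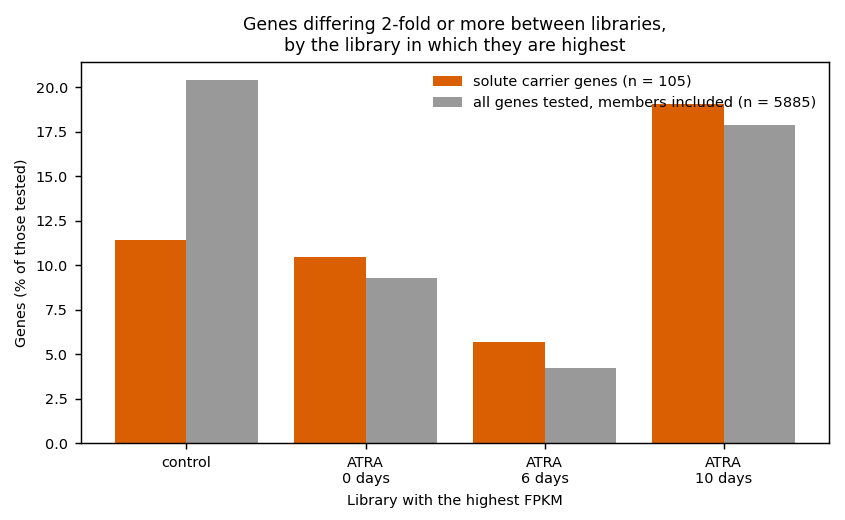
Bars give the percentage of genes that differed 2-fold or more on the log2(FPKM + 1) scale, by the library in which the gene was highest, for 105 solute carrier genes (orange, left) and all 5885 genes tested, members included (grey, right). The bar for the control is 11.4% for solute carriers and 20.4% for all genes, and for each ATRA library the bars of both sets differ by less than 2 percentage points.

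**Figure D2:**
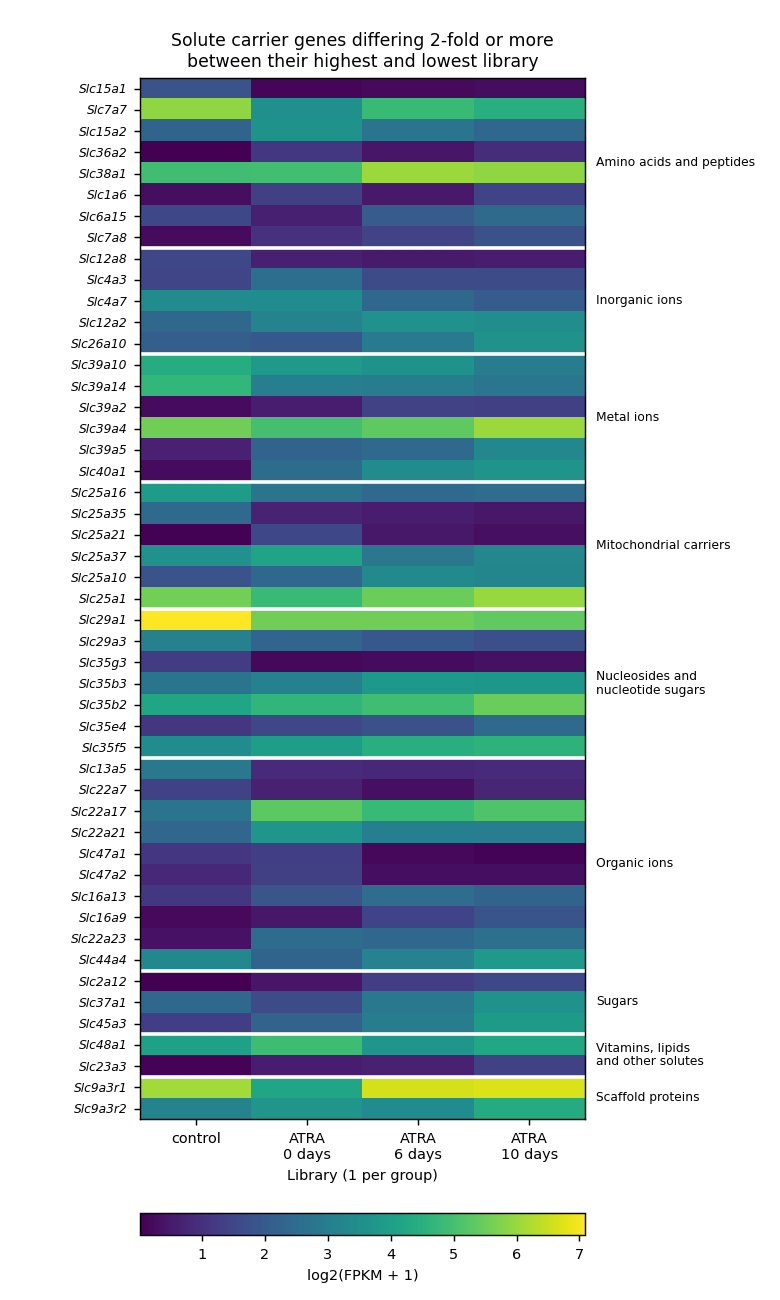
Each row is 1 of the 49 members with a span of 2-fold or more, each column 1 library, and the colour is log2(FPKM + 1); white lines part the substrate classes. Slc29a1 is brightest in the control, Slc22a17 and Slc40a1 are brighter in all 3 ATRA libraries, and Slc9a3r1 is dimmest at 0 days.

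The sequence before the start site was read to describe what members with the same direction share there. RefSeq starts on GRCm38.p6 (the mm10 build) were matched for 74 of 105 members, and the 250 bases before the most upstream start were read. The 4 sequences shown are from members with large differences at 0 days relative to the control: Slc22a23 and Slc39a5 were higher, Slc13a5 and Slc7a7 lower, and each pair has 1 sequence rich and 1 poor in CG dinucleotides, which are in capitals. All 4 genes lie on the minus strand, at chr13:34345219-34345468, chr10:128401225-128401474, chr11:72267162-72267411 and chr14:54417945-54418194, in the order printed.
Slc22a23: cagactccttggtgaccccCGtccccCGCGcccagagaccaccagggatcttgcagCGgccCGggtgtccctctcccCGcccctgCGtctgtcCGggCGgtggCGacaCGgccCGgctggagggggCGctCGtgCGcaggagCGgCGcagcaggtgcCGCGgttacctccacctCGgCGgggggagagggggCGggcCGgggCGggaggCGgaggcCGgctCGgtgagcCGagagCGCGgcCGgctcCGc
Slc39a5: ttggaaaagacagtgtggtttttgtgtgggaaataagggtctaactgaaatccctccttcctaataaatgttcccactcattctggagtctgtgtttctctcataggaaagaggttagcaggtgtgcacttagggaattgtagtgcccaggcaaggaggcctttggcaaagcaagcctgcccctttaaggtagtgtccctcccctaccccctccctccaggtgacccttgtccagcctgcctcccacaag
Slc13a5: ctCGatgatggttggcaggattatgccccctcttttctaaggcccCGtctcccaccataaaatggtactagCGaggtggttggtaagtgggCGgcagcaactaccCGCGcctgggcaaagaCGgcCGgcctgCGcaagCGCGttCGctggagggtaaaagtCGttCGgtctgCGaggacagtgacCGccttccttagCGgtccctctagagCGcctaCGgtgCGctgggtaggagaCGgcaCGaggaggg
Slc7a7: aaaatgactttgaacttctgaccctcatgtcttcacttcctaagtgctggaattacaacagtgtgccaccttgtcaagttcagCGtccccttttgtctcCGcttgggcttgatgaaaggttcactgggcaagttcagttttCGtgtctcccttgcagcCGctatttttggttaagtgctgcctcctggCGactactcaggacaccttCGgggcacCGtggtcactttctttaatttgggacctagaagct

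Slc22a23 held 32 CG dinucleotides in this window and Slc39a5 held 0, and both were higher at 0 days. Slc13a5 held 22 and Slc7a7 held 7, and both were lower. These 4 were picked for their unlike CG content, so nothing follows from the contrast within a pair. Over the 35 matched members that differed 2-fold or more between libraries the median was 11 CG dinucleotides, and over the 39 that did not it was 16. Among all genes tested with a matched start the corresponding medians were 15 (2075 genes) and 18 (2080 genes). The 3 motifs searched on both strands were TATAAA (the TATA box), AGGTCA (a motif of nuclear receptors, among them the retinoic acid receptors) and CACGTG (an E-box), none of which contains another. AGGTCA was found upstream of 6 of 74 members (8.11%), against 10.5% of all genes tested and 13.8% of all promoters in the table. None of the 7 matched members higher at 0 days and none of the 8 lower held it. TATAAA was found for 6 members (8.11%, against 6.16% of all genes tested and 13.0% of all promoters) and CACGTG for 7 (9.46%, against 9.07% and 6.04%).

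**Figure D3:**
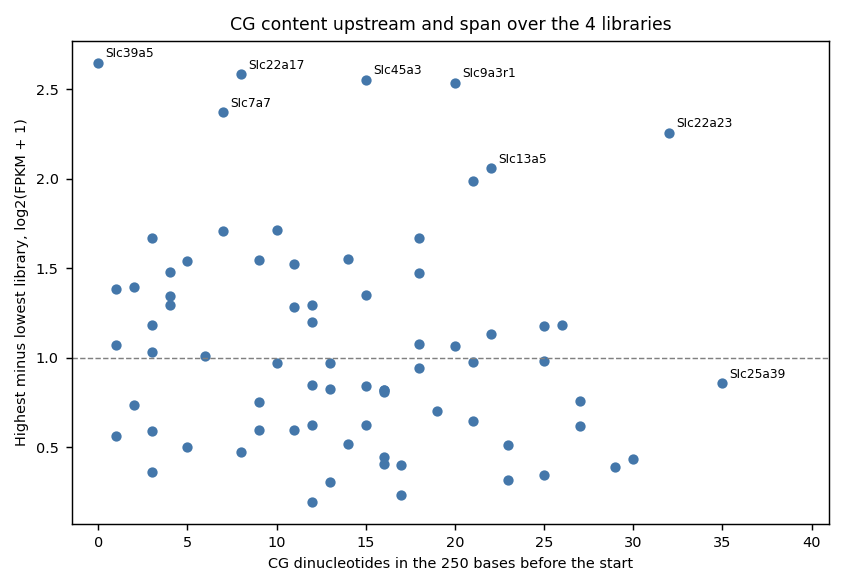
Each point is 1 of 74 members with a matched RefSeq start; the x axis counts CG dinucleotides in the 250 bases before it, and the y axis is the highest minus the lowest library in log2(FPKM + 1). Members above the dashed line (2-fold) range from 0 CG dinucleotides (Slc39a5) to 32 (Slc22a23).

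Among the members that carry amino acids and peptides, Slc7a7 was lower after ATRA, Slc38a1 was higher from 6 days on, and the abundant Slc38a2 and Slc38a4 stayed within 2-fold. Of 19 members, 3 were higher and 2 lower at 0 days than in the control (all genes: 12.2% and 12.8%), and 3 were higher at 6 than at 0 days (all genes: 8.22%). With so few members, 1 gene more or less moves a class share by several percentage points, here and in the classes below. Slc7a7 (y+LAT1), the light subunit of an exchanger that lets cationic amino acids out of epithelial cells, had the widest span (chromosome 14, 54369442 to 54417780, minus strand). It stood at 59.8 FPKM in the control and at 10.8, 26.6 and 21.3 FPKM at 0, 6 and 10 days, so it was lowest at 0 days and partly higher again later (-2.37 at 0 days against control, 1.23 at 6 against 0 days). An exon of Oxa1l on the opposite strand covers 7.00% of its exonic bases, and Oxa1l was between 31.0 and 38.7 FPKM in all 4 libraries.

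The peptide carriers of family 15 differed from each other. Slc15a1 (PEPT1, the intestinal carrier of di- and tripeptides) stood at 2.57 FPKM in the control and at 0.0908, 0.144 and 0.198 FPKM at 0, 6 and 10 days. Slc15a2 (PEPT2, its high-affinity relative) stood at 3.93 FPKM in the control and at 11.5, 5.62 and 4.25 FPKM in the ATRA series, a difference of 1.34 at 0 days. Slc15a1 was thus highest in the control and Slc15a2 at 0 days.

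The sodium-coupled neutral amino acid carriers of family 38 had the highest levels of the class. Slc38a1 (SNAT1) was at 29.2 FPKM in the control and at 30.1, 64.1 and 59.0 FPKM at 0, 6 and 10 days, 2-fold higher at 6 than at 0 days (1.07). Slc38a2 (SNAT2), which cells induce when amino acids run short, lies 44.5 kb from Slc38a1 on chromosome 15 and did not follow it, with 99.6 FPKM in the control and 73.3, 98.5 and 87.9 FPKM at 0, 6 and 10 days. Slc38a4, an imprinted gene expressed from the paternal allele in mouse, was between 65.0 and 83.9 FPKM in all 4 libraries.

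Other amino acid carriers with a 2-fold span lay below 5 FPKM; these, and every other member outside the naming rule, were named after their values were seen. Slc6a15, a sodium-dependent carrier of branched-chain amino acids, was at 1.94 FPKM in the control and at 0.568, 3.22 and 4.46 FPKM in the ATRA series. Slc7a8 (LAT2, a neutral amino acid exchanger) was at 0.162 FPKM in the control and at 1.03, 1.78 and 2.40 FPKM. Slc1a6, a glutamate transporter of Purkinje cells, was at 0.219, 1.56, 0.421 and 1.76 FPKM, and Slc36a2 at 0.0266, 1.22, 0.365 and 0.908 FPKM, both in the order control, 0, 6 and 10 days; these last values had no steady direction. The other 11 members of the class spanned less than 2-fold. Among them Slc1a3 (GLAST, the glutamate transporter of radial glia) was at 4.96 FPKM in the control and 7.55, 8.95 and 8.24 FPKM at 0, 6 and 10 days.

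Sugar carriers had 5 members above the minimum, and 3 of them were higher at 10 days than in the control, with none lower (all genes: 19.6% and 17.1%). The median difference of the class at 10 days was 1.24, against -0.04 over all genes (1.39 and 1.31 under the other scalings, with the same 5 members). This median is the value of Slc37a1 alone, and Slc2a4 and Slc45a4 differed by -0.26 and -0.07. Slc2a12, 1 of the 3 higher members, reached the minimum at 6 and 10 days only. The minimum thus let it in through libraries where it was high, and its call is no support for a class trend. Slc45a3, placed here by its family, had the widest span of the 5 (chromosome 1, 131962967 to 131982969, plus strand). It was at 1.51 FPKM in the control and 3.86, 6.94 and 13.7 FPKM at 0, 6 and 10 days, higher at each stage. Slc37a1, which exchanges glucose 6-phosphate for phosphate at the endoplasmic reticulum, was at 4.33 FPKM in the control and 2.17, 6.26 and 11.6 FPKM in the ATRA series, lowest at 0 days and highest at 10 days. Slc2a12 (GLUT12) was at 0.0115 FPKM in the control and at 0.369, 1.47 and 1.94 FPKM. Exons of Tbpl1, on the opposite strand, cover 9.61% of the exonic bases of Slc2a12, and Tbpl1 was at 10.3, 18.6, 17.6 and 15.3 FPKM. Slc2a4 (GLUT4, the insulin-responsive carrier) was between 1.04 and 1.87 FPKM, and Slc45a4, the most abundant of the 5, between 12.6 and 17.5 FPKM.

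Inorganic ion carriers were low to moderate, with no member above 17.1 FPKM, and the sum of the 10 members lay between 46.6 and 55.8 FPKM in all 4 libraries. At 0 days 1 of the 10 was higher than in the control (all genes: 12.2%), and at 10 days 2 were higher and 1 lower (all genes: 19.6% and 17.1%). Slc12a2 (NKCC1, the cotransporter of sodium, potassium and chloride that loads cells with chloride) was at 4.32 FPKM in the control and 8.02, 11.0 and 10.1 FPKM at 0, 6 and 10 days. Slc12a7 (KCC4, which lets potassium and chloride out) was at 17.1 FPKM in the control and 16.6, 10.7 and 12.7 FPKM. Of these opposed carriers, Slc12a2 was 2-fold higher at 10 days than in the control (1.06) and Slc12a7 was within 2-fold (-0.41).

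Bicarbonate and anion carriers of family 4 had lower values at 6 than at 0 days. On the log2(FPKM + 1) scale only Slc4a7 was called lower, but with a pseudocount of 0.5 Slc4a3 and Slc4a9 were called too. With a pseudocount of 0.1 Slc4a8 was also called. Slc4a7 (NBCn1, an electroneutral cotransporter of sodium and bicarbonate) was at 9.75 FPKM in the control and 10.0, 4.19 and 3.19 FPKM at 0, 6 and 10 days, a difference of -1.09 between 6 and 0 days. Slc4a3 (AE3, an anion exchanger of heart and brain) was at 1.84 FPKM in the control and 4.94, 2.13 and 2.08 FPKM, so it stood out at 0 days only. Slc4a8 and Slc4a9 were at 1.80 FPKM or less in every library. Slc26a10 was at 3.47 FPKM in the control and 2.91, 6.76 and 11.4 FPKM in the ATRA series. Exons of B4galnt1 on the opposite strand cover 17.8% of the exonic bases of Slc26a10, and B4galnt1 was at 3.40, 12.4, 11.7 and 23.1 FPKM. No source used here says whether reads were assigned by strand, so reads from the shared stretch of such overlapping pairs cannot be told apart. Slc12a8 was between 0.446 and 0.558 FPKM in the ATRA libraries and at 1.91 FPKM in the control.

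Metal ion carriers gave the widest span of all members, in Slc40a1 (ferroportin, the iron exporter of vertebrate cells; chromosome 1, 45908068 to 45926523, minus strand). It stood at 0.171 FPKM in the control and at 4.72, 9.81 and 11.9 FPKM at 0, 6 and 10 days, a difference of 2.29 at 0 days and 3.46 at 10 days. The summed endoderm markers, mostly Sparc, were also higher at each stage, as given above. Not every marker of that list was, and the part of the markers in this result was not tested. Slc11a2 (DMT1), which brings iron into cells, was at 10.3 FPKM in the control and 10.4, 13.4 and 15.0 FPKM. Slc11a2 thus kept within 2-fold while Slc40a1 did not. Slc39a14, given below, also imports iron and was lower than in the control at 0 days (-1.66) and 10 days (-1.91). Slc25a37 (mitoferrin-1), which passes iron into mitochondria for haem synthesis, was at 11.0 FPKM in the control and 16.6, 6.04 and 8.80 FPKM, and Slc48a1 (HRG1), which carries haem out of lysosomes, at 15.8 FPKM in the control and 28.6, 11.9 and 17.6 FPKM. Both of these were highest at 0 days and 2-fold lower at 6 than at 0 days (-1.32 and -1.20). Exons of Hdac7 cover 1.05% of the exonic bases of Slc48a1.

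Zinc carriers of family 39 moved in both directions. Slc39a5 (ZIP5, found on the basolateral side of gut and visceral endoderm cells in mouse; chromosome 10, 128395931 to 128401229) was at 0.585 FPKM in the control and 3.77, 4.52 and 8.93 FPKM at 0, 6 and 10 days, higher at each stage. This is the gene whose upstream sequence, above, has no CG dinucleotide. Slc39a4 (ZIP4, the apical zinc importer whose human gene is mutated in acrodermatitis enteropathica) was the most abundant metal carrier, at 46.1 FPKM in the control and 31.3, 39.1 and 64.6 FPKM. Slc39a14 (ZIP14, which imports zinc, iron and manganese) was at 25.0 FPKM in the control and 7.24, 6.92 and 5.91 FPKM, and most of the difference was there at 0 days (-1.66). Slc39a10 was at 19.9 FPKM in the control and 13.2, 11.6 and 7.00 FPKM, a smaller change spread over the stages. Slc39a2, which shares 4.38% of its exonic bases with Mettl17 on the same strand, was at 0.163 FPKM in the control and 0.483, 1.64 and 1.58 FPKM.

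The exporters and organelle loaders of zinc among the members spanned less than 2-fold on the log2(FPKM + 1) scale. So did Slc39a3, Slc39a6, Slc39a9 and Slc39a11 of family 39. Slc30a1 (ZnT1, the plasma membrane exporter) was between 8.05 and 10.5 FPKM, and Slc30a5 and Slc30a6, which together load zinc into the secretory pathway, between 23.5 and 27.7 FPKM and between 9.04 and 14.5 FPKM. Of the 17 metal carriers 2 were higher and 1 lower at 0 days than in the control, against 12.2% and 12.8% of all genes, and 3 were higher and 2 lower at 10 days, against 19.6% and 17.1%.

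Of 15 carriers of organic ions, 10 had a 2-fold span (66.7%, against 51.8% of all genes). At 0 days 3 were higher and 2 lower than in the control (all genes: 12.2% and 12.8%), and at 10 days 4 were higher and 2 lower (all genes: 19.6% and 17.1%). Slc22a17, known as a receptor for lipocalin 2, had the largest difference at 0 days of any member (2.58; chromosome 14, 54906304 to 54913132, minus strand). It was at 5.67 FPKM in the control and 38.9, 27.1 and 34.2 FPKM at 0, 6 and 10 days, so all 3 ATRA libraries were well above the control and close to each other. Slc22a23, an orphan member of the same family with the CG-rich sequence above, had the same shape at a lower level, with 0.282 FPKM in the control and 4.67, 4.23 and 5.12 FPKM. Slc22a21 (Octn3, a carnitine carrier in mouse) was at 4.06 FPKM in the control and 12.1, 7.36 and 7.29 FPKM, highest at 0 days. Its neighbour Slc22a4, 2.79 kb away and of similar sequence, was below the minimum at up to 0.335 FPKM. How reads shared by such relatives were split is not stated.

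Lower at 0 days was Slc13a5 (NaCT, which brings citrate into cells across the plasma membrane), at 6.26 FPKM in the control and 0.817, 0.742 and 0.862 FPKM at 0, 6 and 10 days. The mitochondrial citrate carrier Slc25a1, which exports citrate for fatty acid synthesis, instead was at 47.2 FPKM in the control and 27.1, 44.3 and 62.6 FPKM, lowest at 0 days and highest at 10 days. Slc13a5 stayed low at all ATRA stages (-2.00 at 0 days), while Slc25a1 did not. Slc44a4, a carrier of choline and thiamine pyrophosphate, was at 8.91 FPKM in the control and 3.95, 7.80 and 13.2 FPKM; its call at 0 days lay at the threshold and was lost under both other scalings.

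Slc16a3 (MCT4, which exports lactate from glycolytic cells) was the most abundant organic ion carrier and changed little, at 69.3 FPKM in the control and 91.2, 70.4 and 86.4 FPKM. Its chaperone is usually Bsg (basigin), and Emb (embigin) serves another carrier of the family. Bsg was at 241 FPKM in the control and 570, 675 and 1452 FPKM at 0, 6 and 10 days, and Emb at 20.0 FPKM in the control and 40.0, 127 and 99.2 FPKM. Both chaperones were 2-fold higher at 10 days than in the control, and the carrier was not. Slc16a9 was at 0.135 FPKM in the control and 0.386, 1.71 and 2.61 FPKM, and Slc16a13 at 1.22, 2.68, 4.85 and 3.87 FPKM in the same order. Slc16a11, 0.372 kb from Slc16a13, was below the minimum in every library. Slc47a1 and Slc47a2, the exporters MATE1 and MATE2 of organic cations, lie 0.541 kb apart on chromosome 11. Slc47a1 was at 1.18 FPKM in the control and 1.53, 0.114 and 0.0698 FPKM, and Slc47a2 at 0.745 FPKM in the control and 1.56, 0.213 and 0.212 FPKM. These neighbours, which are similar in sequence, were both 2-fold lower at 6 than at 0 days. Slc22a7 was at 1.62 FPKM in the control and 0.594, 0.246 and 0.714 FPKM.

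Mitochondrial carriers had the highest summed level of the 8 substrate classes, and 6 of 18 spanned 2-fold (33.3%, against 51.8% of all genes). The median span of the class was 0.96, against 0.97 over all members. At 0 days 1 was higher and 2 were lower than in the control (all genes: 12.2% and 12.8%), and the counts at 10 days were the same (all genes: 19.6% and 17.1%). Their summed level was 802 FPKM in the control and 561, 632 and 752 FPKM at 0, 6 and 10 days. Under median-ratio scaling the sum was 732, 575, 652 and 779 FPKM, and under upper-quartile scaling 724, 603, 672 and 728 FPKM, so 0 days was lowest in each case, while the order of control and 10 days turned under both. Slc25a3, the phosphate carrier that supplies ATP synthase, made up 49.1% to 52.7% of the sum and was at 423 FPKM in the control and 275, 318 and 381 FPKM. Without it the sum was 380 FPKM in the control and 285, 313 and 371 FPKM, the same order. Slc25a39, needed for mitochondrial glutathione, came next at 134 FPKM in the control and 85.8, 73.6 and 104 FPKM.

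**Figure D4:**
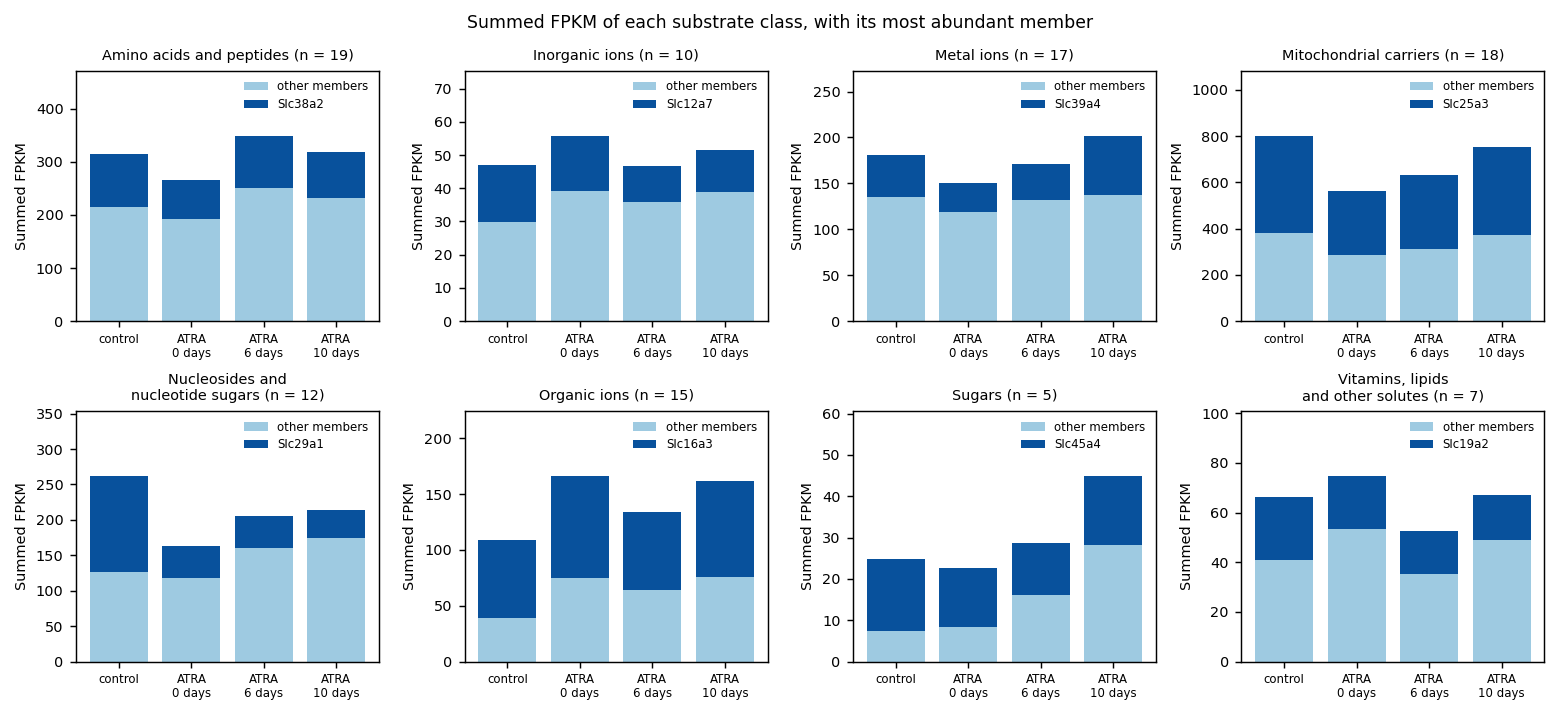
Each panel gives the summed FPKM of a substrate class in the 4 libraries, with its most abundant member in dark blue and the others in light blue. Mitochondrial carriers are lowest at 0 days (561 FPKM), and sugar carriers are highest at 10 days (44.9 FPKM). In nucleoside and nucleotide sugar carriers the lower sum at 0 days than in the control lies mainly in Slc29a1. Their higher sums at 6 and 10 than at 0 days lie in the other members.

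Individual mitochondrial carriers differed from this course. Slc25a10, the dicarboxylate carrier, was at 2.55 FPKM in the control and 4.32, 9.35 and 8.57 FPKM, higher at 6 and 10 days. Slc25a16 was at 13.9 FPKM in the control and 5.65, 4.37 and 4.85 FPKM, lower in all 3 ATRA libraries, although its call at 0 days (-1.17) was lost under upper-quartile scaling. Slc25a21, which carries oxodicarboxylates, was at 0.0397 FPKM in the control and 1.90, 0.399 and 0.230 FPKM, seen mainly at 0 days. Exons of Pax9 on the opposite strand cover 3.88% of its exonic bases, and Pax9 was at 0.375 FPKM or less in every library. Slc25a35 was at 4.39 FPKM in the control and 0.622, 0.459 and 0.389 FPKM. Exons of Rangrf, on the opposite strand, cover 31.3% of the exonic bases of Slc25a35, and Rangrf was at 62.3 FPKM in the control and 21.8, 25.0 and 22.1 FPKM. Both genes of this overlapping pair were thus lower in all 3 ATRA libraries, and their reads from the shared stretch cannot be told apart. Among the 12 mitochondrial carriers that spanned less than 2-fold, the oxoglutarate carrier Slc25a11 was between 36.6 and 60.3 FPKM and the peroxisomal Slc25a17, placed here by its family number, between 45.3 and 65.4 FPKM. The mitochondrial pyruvate carrier, which is not of the Slc symbols, had Mpc1 at 28.5 FPKM in the control and 17.0, 23.0 and 23.4 FPKM, and Mpc2 at 21.1 FPKM in the control and 30.4, 37.1 and 56.1 FPKM.

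Carriers of nucleosides and nucleotide sugars differed by family. At 0 days 2 of 12 were lower than in the control and none higher (all genes: 12.8% and 12.2%), and at 10 days 4 were higher and 2 lower (all genes: 19.6% and 17.1%). In family 29, Slc29a1 (ENT1, the main nucleoside carrier of the plasma membrane; chromosome 17, 45585200 to 45599606, minus strand) was at 135 FPKM in the control and 46.2, 46.0 and 40.5 FPKM at 0, 6 and 10 days. Slc29a3 (ENT3, of lysosomes) was at 7.51 FPKM in the control and 3.99, 2.89 and 2.33 FPKM. Both were lower at every stage than at the one before, although Slc29a1 differed by only -0.0067 between 6 and 0 days. Slc29a1 had nearly all of its difference at 0 days (-1.53).

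In family 35, both Golgi carriers of PAPS, the sulfate donor for heparan and chondroitin sulfate, were higher at 10 days than in the control. Slc35b2 (chromosome 17, 45563874 to 45567671, plus strand) was at 17.3 FPKM in the control and 24.5, 29.4 and 43.6 FPKM, and Slc35b3 at 5.74 FPKM in the control and 7.71, 12.8 and 12.5 FPKM (differences at 10 days of 1.29 and 1.01). Slc26a2, which takes up sulfate, was at 3.92 FPKM in the control and 6.20, 7.68 and 7.70 FPKM, short of 2-fold. Slc35b2 and Slc29a1 lie 17.5 kb apart and moved in opposite directions. Slc35f5 was at 9.97 FPKM in the control and 14.4, 20.8 and 23.0 FPKM, and Slc35e4 at 1.19, 1.85, 2.40 and 4.36 FPKM in the same order. Slc35b1, which brings ATP into the endoplasmic reticulum, was at 42.6 FPKM in the control and 22.4, 44.9 and 43.3 FPKM. It was low at 0 days alone, and its log2(FPKM + 1) difference between 6 and 0 days (0.97) fell just short of a call. Slc35g3 was between 0.128 and 0.270 FPKM in the ATRA libraries and at 1.37 FPKM in the control, and its call at 0 days was lost under both other scalings.

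Vitamin, lipid and other carriers had 2 of 7 members with a span of 2-fold, against 51.8% of all genes: Slc48a1, given above, and Slc23a3, at 0.0552 FPKM in the control and 0.467, 0.594 and 1.59 FPKM. The thiamine carrier Slc19a2 was between 17.4 and 25.3 FPKM, the reduced folate carrier Slc19a1 between 6.47 and 8.89 FPKM, and the proton-coupled folate carrier Slc46a1 between 7.20 and 11.4 FPKM. Slc52a2, a riboflavin carrier, was at 5.65 FPKM in the control and 7.40, 7.55 and 11.3 FPKM.

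The scaffold Slc9a3r1 (NHERF1), which tethers transporters to the actin cortex of microvilli, had the largest difference of any member at 6 relative to 0 days (2.44; chromosome 11, 115163341 to 115181181, plus strand). It was at 68.0 FPKM in the control and 17.1, 97.6 and 104 FPKM at 0, 6 and 10 days, low at 0 days alone. Slc9a3r2 was at 8.04 FPKM in the control and 11.9, 9.88 and 19.8 FPKM. Atp1b1, a subunit of the sodium pump whose gradient powers many solute carriers, had the same shape as Slc9a3r1, at 74.3 FPKM in the control and 18.9, 104 and 130 FPKM. Atp1b2, another subunit of that pump, went the other way. It was at 16.0 FPKM in the control and 23.1, 4.40 and 6.39 FPKM, highest at 0 days.

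**Figure D5:**
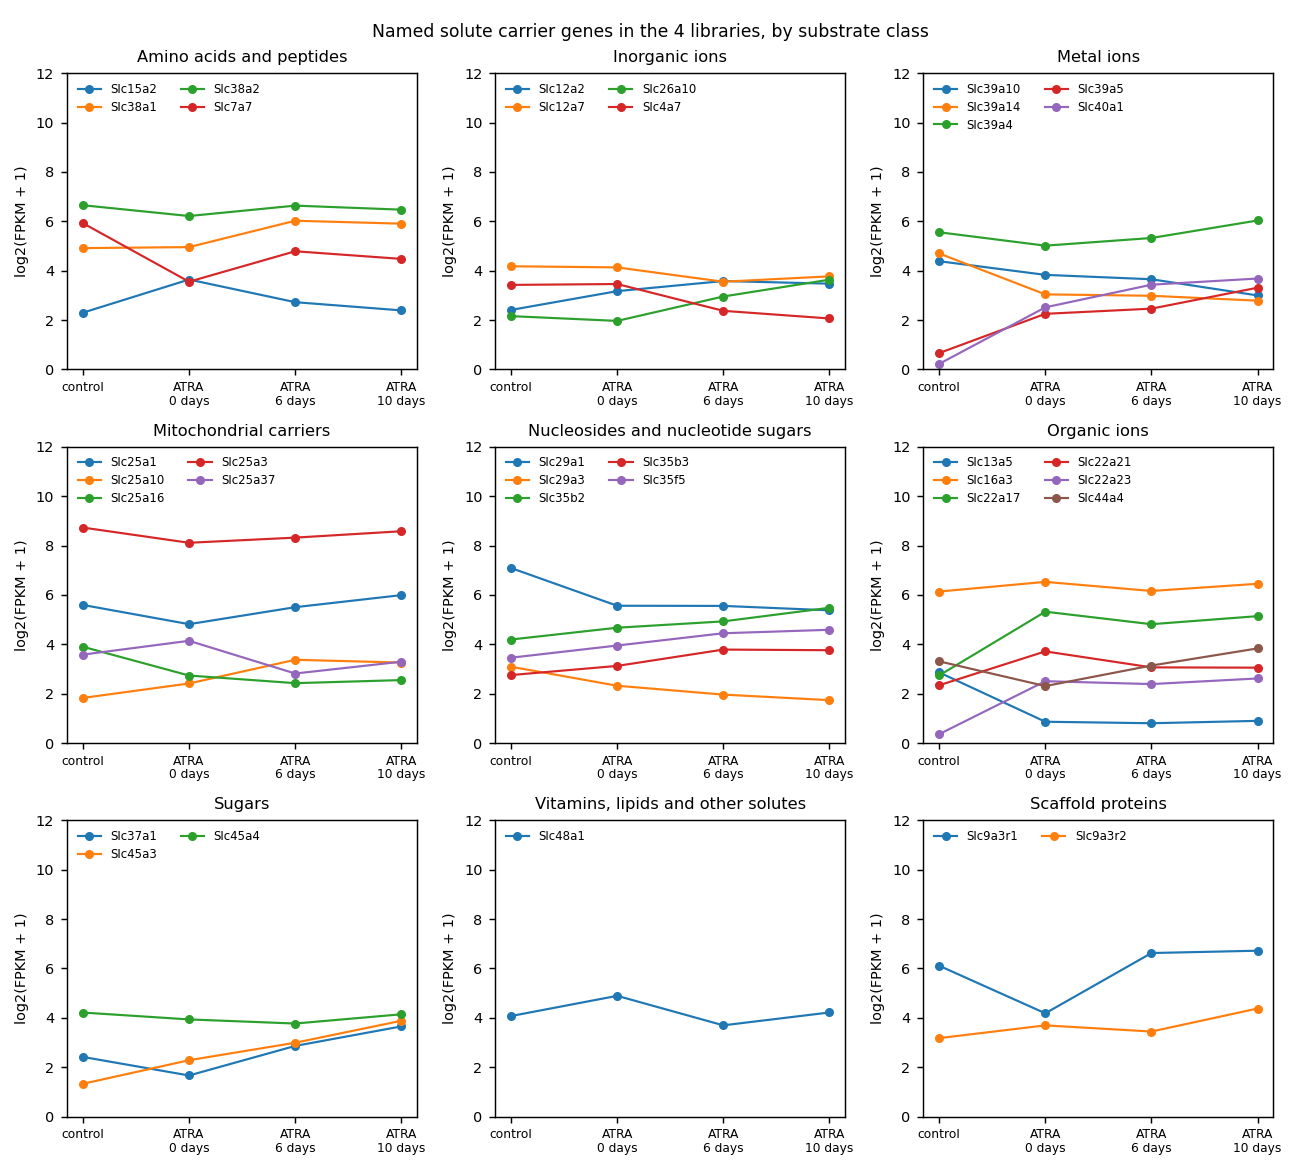
Lines join the log2(FPKM + 1) of each of 35 named members over the 4 libraries, in a panel per substrate class. Most lines bend between the control and 0 days or between 0 and 6 days; none changes by 1 unit between 6 and 10 days.

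Transport genes outside the Slc symbols were counted in the same way. The ABC genes were taken by symbol, which is no guarantee of a transporter here either, as with Abcf1 and Abcf3. Of 13 tested, 2 were higher and none lower at 0 days than in the control, against 12.2% and 12.8% of all genes. These were Abca3, at 10.5 FPKM at 0 days against 2.43 FPKM in the control, and Abca5, at 3.23 against 0.852 FPKM. At 10 days 2 were higher than at 6 days (all genes: 3.70%): Abcc3 at 5.61 FPKM at 10 days against 0.777 FPKM at 6 days, and Abcd4 at 22.3 against 10.0 FPKM. Of 15 P-type and vacuolar ATPases, 1 was higher and 2 lower at 0 days than in the control (all genes: 12.2% and 12.8%), and 2 were higher and 1 lower at 6 than at 0 days (all genes: 8.22% and 4.88%). At 10 days relative to the control 3 of the 13 ABC genes were higher and 1 lower, and 3 of these ATPases were higher and 3 lower, against 19.6% and 17.1% of all genes. Among the aquaporins and in the Slco family 1 gene each was tested. Aqp5 was at 1.31 FPKM in the control and 0.379, 0.514 and 2.99 FPKM at 0, 6 and 10 days, and Slco4c1 at 1.19 FPKM in the control and 0.321, 0.424 and 0.172 FPKM.

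The 59 listed solute carrier symbols below the minimum were led by carriers of organic ions (21) and inorganic ions (13), and included 3 antisense RNAs. In 29 of them at least 1 library was listed at 0, and 20 were listed at 0 in the control. Of the 36 listed organic ion carriers, 15 passed the minimum, against 17 of 19 metal carriers and 18 of 20 mitochondrial carriers.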

How the data were processed

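RNA of 4 embryoid body libraries, 1 per group, was sequenced from oligo(dT)-primed cDNA. The authors deposited FPKM values per gene; Trimmomatic, TopHat, Cufflinks and the mm10 build are listed in the submitters' processing notes, without versions. The annotation, the filters and the use of strand are not stated there. The table has 10201 rows and 9997 symbols; values of 177 repeated symbols, none a member, were summed. How Cufflinks was set to share out reads that match similar genes is not stated either, which bears on Slc47a1, Slc47a2 and Slc22a21. Fragments per library were estimated from FPKM times transcript length in kb, over genes with 1 transcript of 800 nt or more. The median of the values inside a fixed low window was taken as the worth of 1 fragment. Between 122 and 145 of 1396 genes fell in that window. The window bounds the totals that can come out, so they are rough. Coordinates are from GENCODE M21 (mm10), matched by symbol for 105 of 105 members; start sites are RefSeq's.

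Members, substrate classes and lists were chosen with earlier results of these data known. Differences are log2(FPKM + 1), called at 2-fold, over 5885 genes at 1 FPKM or more in a library. In each class the text names up to 6 members at 5 FPKM or more with the widest span of 2-fold or more, plus the most abundant member and both scaffolds; 35 were named so. With 1 library per group there is no test, SD or p-value. Python 3.11.15, numpy 2.4.6, pandas 2.3.3 and matplotlib 3.10.9 were used.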

Additional observations from a re-analysis of the deposited data

How the results depend on the processing

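The 12 counts of solute carrier genes were recomputed under 7 other settings, and 67 of 84 values stayed within 1.5 times the reported count. These 67 include every value of the no-filter and highest-row settings, which could not change a count, as given below. No call reversed, though a change of pseudocount or minimum cannot turn a direction. With a pseudocount of 0.1, 21 genes were higher at 0 days than in the control, 12 higher and 14 lower at 6 than at 0 days, 5 higher and 1 lower at 10 than at 6 days, and 32 higher and 19 lower at 10 days than in the control. With a pseudocount of 0.5, 11 were higher and 10 lower at 6 than at 0 days, and 2 were higher at 10 than at 6 days. A minimum of 5 FPKM, which leaves 65 members, gave 6 higher at 0 days and 13 higher at 10 days than in the control, and 3 lower at 6 than at 0 days. Under that minimum 6 genes with a 2-fold span were highest at 0 days, 13 at 10 days and 7 in the control. Upper-quartile scaling put 10 genes highest at 6 days. These pseudocounts raise the fold of low genes, and the minimum tests fewer genes; the cause of the shift under upper-quartile scaling was not tested. No filter and the highest row of a repeated symbol left every count as reported, as they had to. A symbol under 1 FPKM in every library cannot differ by 2-fold on the log2(FPKM + 1) scale, and no member symbol was repeated. In 40 of 105 members the highest library was at 1 to 5 FPKM, where these choices weigh most on a fold. No paired analysis was possible because each group has 1 library; for the same reason no library could be left out.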
